A study of Bos taurus with 6 samples.

Results

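The genes described here are the subunits, activators, inhibitor and assembly factors of the proteasome that the array names, 46 of the 15012 genes with a name on it. They were taken as the genes whose symbol, in the files' gene name or in brackets in the probe's description, is PSMA, PSMB, PSMC, PSMD, PSME, PSMF or PSMG followed by a number. In all, 102 probes carried such a symbol. For each gene the probe with the highest mean log2 signal over the 6 arrays was used, so measured differences between the groups did not enter the choice. All 46 genes were tested. PSMC3IP, with 2 probes, only shares the letters of its symbol and was set apart. Another 2 probes described as subunit 3 of the activator carried no symbol and were not counted as members.

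The series compared whole blood from the jugular vein of 3 fat-1 transgenic cows with that of 3 wild type cows, all female, with 1 Agilent array labelled with 1 dye, Cy3, for each animal. The fat-1 gene of Caenorhabditis elegans encodes a desaturase that makes omega-3 out of omega-6 fatty acids, which mammals cannot do. The fat-1 replicate 1 animal was 3.5 years old, and the fat-1 replicates 2 and 3 and all wild type animals were 3 years old. The labels used here name neither the promoter of the transgene nor the line of the animals, and the array names no probe for it, so each animal's genotype is as labelled and was not verified by transcript.

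The proteasome is the large protease that degrades proteins tagged with ubiquitin. Its 20S core is a barrel of alpha rings around beta rings, and PSMB5, PSMB6 and PSMB7 are its constitutive catalytic subunits. The 19S cap binds the tagged protein, removes the tag and feeds the chain into the core. Interferon-gamma induces PSMB8, PSMB9 and PSMB10, which replace PSMB5, PSMB6 and PSMB7 and form the immunoproteasome, and also PSME1 and PSME2, which form an activator that docks on the core in place of the cap. Blood cells of the lymphoid and myeloid lineages are known to carry much immunoproteasome, which makes peptides for presentation on MHC class I. Roles given below are those known from human, mouse or yeast.

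The probes are designed sequences of 60 bases. Of the members' probes, 5 are shown as deposited, 5′ to 3′ and in lower case, because each reads a subunit whose difference is discussed. Positions refer to Btau_3.1, the build that the file headers name. The probe of PSMB10 lies at chr18:34441558-34441728 on the minus strand, that of PSMB8 at chr23:7379932-7380229 on the minus strand and that of PSME1 at chr10:21292296-21292518 on the minus strand. Each of these spans more genome than its own length, so its match to the genome is split. The probe of PSMB9 lies at chr23:7398455-7398514 on the plus strand and that of PSMA4 at chr21:30990714-30990773 on the plus strand, both as 1 block. Which exon or untranslated region a probe lies in is not given here, for lack of gene models on Btau_3.1. The PSMB10 probe is the one used for that gene, and the others are further probes of their genes.
PSMB10: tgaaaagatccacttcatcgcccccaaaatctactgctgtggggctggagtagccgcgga
PSMB8: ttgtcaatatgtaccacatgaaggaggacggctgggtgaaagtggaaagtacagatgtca
PSMB9: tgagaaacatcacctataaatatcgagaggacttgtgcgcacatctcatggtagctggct
PSME1: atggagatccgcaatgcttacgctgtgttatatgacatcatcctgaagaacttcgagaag
PSMA4: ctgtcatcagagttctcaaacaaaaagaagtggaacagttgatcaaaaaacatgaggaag

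The genes of the inducible set lie close together at 2 places. The probes of PSMB8 and PSMB9 used for the test lie on chromosome 23 between positions 7379740 and 7399959. Of the genes of the peptide transporter, the TAP1 probe at 7386309 lies between them, and the TAP2 probe at 7345518 lies outside, on the side of PSMB8. PSME2 at 21287115 and PSME1 at 21292202 are neighbours on chromosome 10 on opposite strands. PSMB10 stands apart from both, on chromosome 18.

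A level below is the log2 of a probe's processed signal over its array's 75th percentile, so 0 is a signal at that percentile. They are compared between animals for 1 probe at a time. Each difference is the fat-1 mean less the wild type mean, in log2 units, and its error is the limma standard error. The 75th percentile of signal was 716 to 1067 on fat-1 arrays and 613 to 888 on wild type arrays, and 60.4% to 63.4% and 58.4% to 61.3% of probes were well above background. Of the 46 members, 45 were well above background on all 6 arrays. The wild type replicate 2 array stood apart in how often its signal was the highest of the 6 animals. This was so for 26 of 46 members and 43.8% of all 10586 genes tested. Its signal was the lowest for 11 members and 22.8% of all genes. Fat-1 replicate 1 was the lowest about as often, for 11 members and 23.4%, and fat-1 replicate 2 for 12 members and 13.5%. The differences of many named members are also given without wild type replicate 2. Each group had 1 slide of its own, and an effect of slide cannot be told apart from one of genotype. In blood as a whole, fewer cells of a type and less RNA in each cell cannot be told apart.

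No member passed an adjusted p of 0.05 in limma, and the smallest adjusted p among them was 0.342. Over the whole array 46 of 26823 probes passed (0.171%), and 18 of the 10586 genes tested with 1 probe each (0.17%). At an unadjusted p under 0.05 stood 1 member with a positive difference, PSMA4, and 1 with a negative one, PSMG4. They are 4.35% of the members, against 11.9% of all genes tested, 5.5% with a positive and 6.4% with a negative difference. Differences were below 0 for 34 of 46 members (73.9%) and for 58.1% of all genes. The median difference was −0.16 over the members, which ranged between −0.48 and 0.77, and −0.08 over all genes. Under quantile scaling 23 of 46 members were above 0 and their median was −0.00, against −0.01 for all genes, so the lean of the whole set below 0 was present under 75th percentile scaling and absent under quantile scaling. The 3 fat-1 animals all lay below the 3 wild type animals for 10 members (21.7%), against 13.3% of all genes, and all above them for 1 member (2.17%), against 7.25%, which is 20.6% of all genes in either direction.

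**Figure D1:**
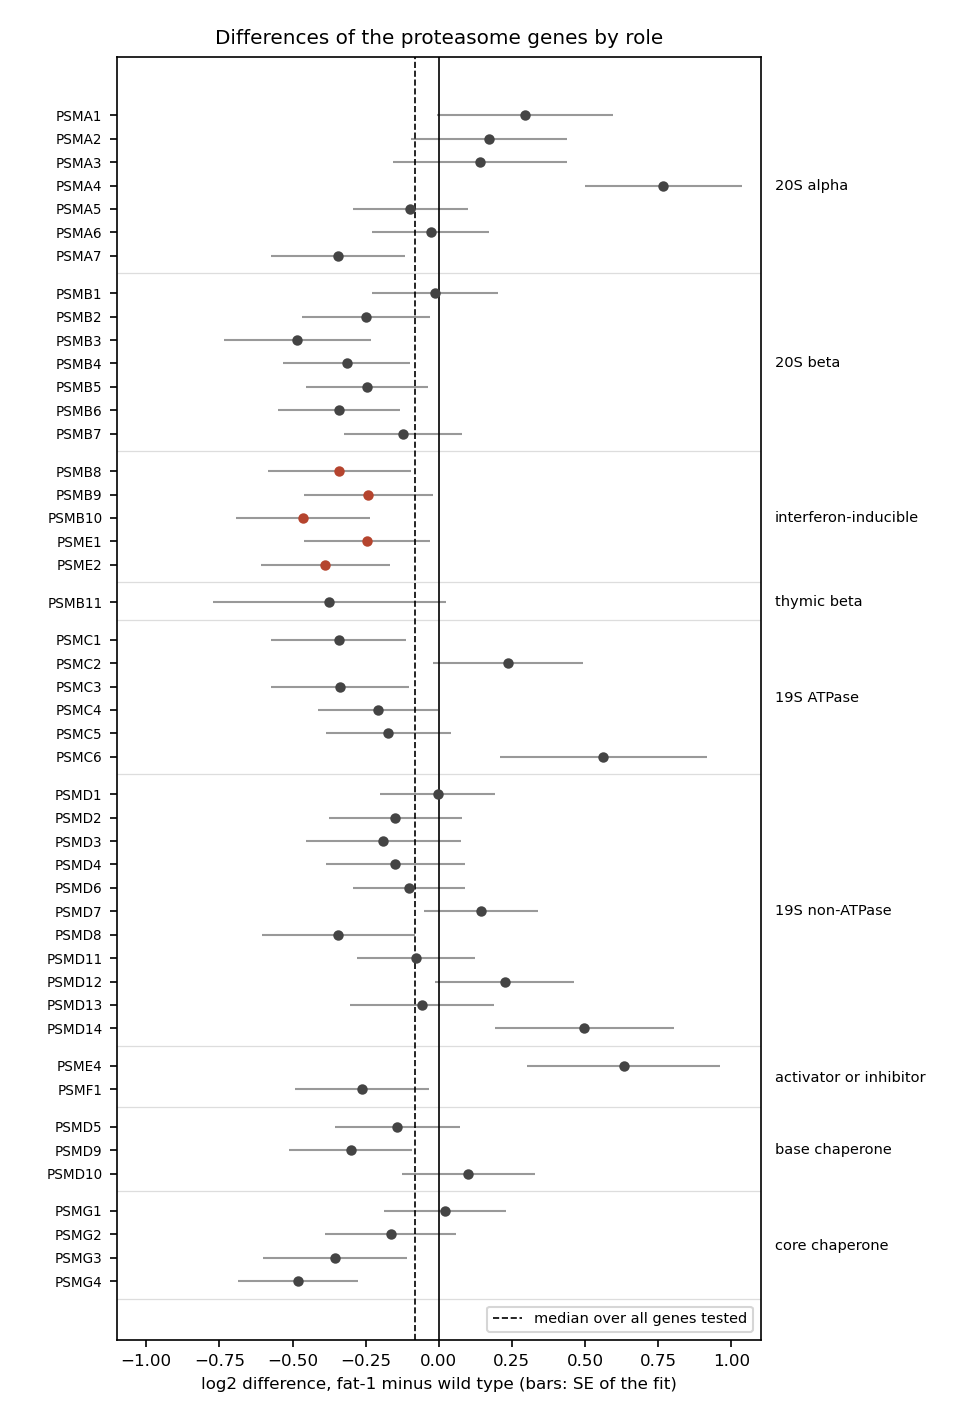
Log2 difference, fat-1 minus wild type, of each of the 46 proteasome genes, grouped by role, with the 5 interferon-inducible subunits in red. Points are the limma estimates from 3 fat-1 and 3 wild type animals, bars are their standard errors and the dashed line is the median over all genes tested, −0.08. The inducible subunits and the 20S beta subunits all lie left of 0, whereas PSMA4, PSME4, PSMC6 and PSMD14 lie farthest to the right.

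The 5 inducible subunits had negative differences in fat-1 blood, between −0.46 and −0.24 with a median of −0.34, and none passed the test. The median over the 41 other members was −0.14, of which 29 were below 0 and 12 above. Below −0.2 lay 5 of the 5 inducible subunits, 20 of all 46 members and 36.2% of all genes. The inducible median lay 0.20 below the other members' median (inducible minus other, −0.20), a description with no test. All 5 differences were below 0 under each of the 15 settings compared, but these are not separate checks. The filters on dim probes, the replicate block and the intensity trend left the 5 differences as they were. The authors' table gave nearly the same values as quantile scaling. With quantile scaling they ranged between −0.33 and −0.01 with a median of −0.13. Without wild type replicate 2 the inducible median was −0.13 and that of the others −0.07, a gap of −0.06.

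PSMB10, which takes the place of PSMB7 and has trypsin-like activity, had levels of 2.51, 2.38 and 2.75 in the fat-1 animals and 2.88, 3.32 and 2.83 in the wild type animals. All 3 fat-1 animals lay below all 3 wild type animals, the nearest being fat-1 replicate 3 and wild type replicate 3. The difference was −0.46 ± 0.23 (SE, n = 3 each), with a 95% interval of −0.99 to 0.06 and a limma adjusted p of 0.414, and it was −0.31 without wild type replicate 2. PSME2, the beta subunit of the interferon-inducible activator, had levels of 5.43, 5.52 and 5.48 in fat-1 blood and 5.80, 6.18 and 5.62 in wild type blood. These groups did not overlap either, and wild type replicate 2 was the highest. Its difference was −0.39 ± 0.22 (limma adjusted p = 0.446), its second probe gave −0.43, and the difference was −0.23 without wild type replicate 2 and −0.19 under quantile scaling.

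PSMB8, the chymotrypsin-like subunit that replaces PSMB5, had levels of 6.14, 6.28 and 6.09 in the fat-1 animals and 6.32, 6.94 and 6.27 in the wild type animals. The groups overlapped by 0.01, since fat-1 replicate 2 reached the level of wild type replicate 3, and the wild type mean was carried by replicate 2. The difference was −0.34 ± 0.24, with a 95% interval of −0.90 to 0.22 and a limma adjusted p of 0.517. The other probes of PSMB8 gave −0.45 and −0.50, while the probe used gave −0.13 both without wild type replicate 2 and under quantile scaling. PSMB9, which replaces PSMB6, had levels of 6.69, 6.52 and 6.64 in fat-1 blood and 6.67, 7.18 and 6.72 in wild type blood. Apart from wild type replicate 2 the animals lay within 0.20 of each other, and the groups overlapped. The difference was −0.24 ± 0.22 (limma adjusted p = 0.599), against −0.08 without wild type replicate 2 and −0.01 under quantile scaling.

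PSME1, the alpha subunit of the same activator, had levels of 5.67, 5.80 and 5.77 in the fat-1 animals and 5.93, 6.27 and 5.77 in the wild type animals. Wild type replicate 3 lay within the fat-1 animals. The difference was −0.25 ± 0.22 (limma adjusted p = 0.585), and the second probe, whose sequence is shown above, gave −0.39. Without wild type replicate 2 the difference was −0.11, and under quantile scaling −0.08.

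**Figure D2:**
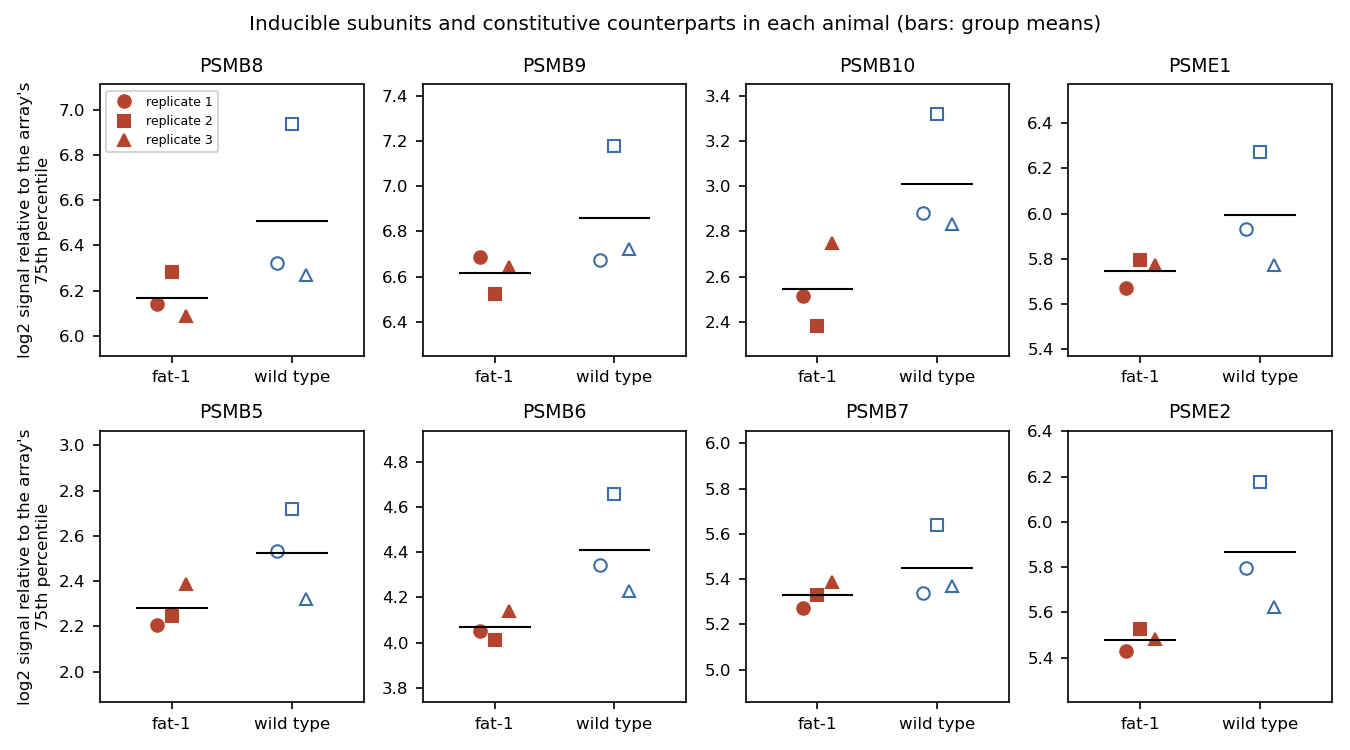
Level of each inducible subunit and of the constitutive catalytic subunits in each animal, as log2 signal over the array's 75th percentile. Filled symbols are fat-1 animals, open symbols wild type animals, the shape is the replicate number and the bar is the group mean. Each panel has its own range of levels. Wild type replicate 2 is the highest animal in all 8 panels, and the groups do not overlap for PSMB10, PSME2 and PSMB6.

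The constitutive catalytic subunits also had negative differences, so the exchange between the sets was looked at gene by gene. PSMB5, the chymotrypsin-like subunit, differed by −0.24 ± 0.21 (limma adjusted p = 0.574), or by −0.15 without wild type replicate 2 and −0.12 under quantile scaling. PSMB6, the caspase-like subunit, had levels of 4.05, 4.01 and 4.14 in fat-1 blood and 4.34, 4.66 and 4.23 in wild type blood, with no overlap, and differed by −0.34 ± 0.21 (limma adjusted p = 0.469), or by −0.22 without wild type replicate 2 and −0.18 under quantile scaling. PSMB7, the trypsin-like subunit, differed by −0.12 ± 0.20 (limma adjusted p = 0.766), and its sign turned to 0.10 under quantile scaling. The second tested PSMB7 probe gave −0.35 ± 0.22 and the mean of its probes −0.24, whereas the probe used gave −0.03 without wild type replicate 2. The log2 ratio of an inducible subunit to its constitutive counterpart does not depend on the percentile by which an array was scaled. Its difference, fat-1 minus wild type, was −0.10 for PSMB8 to PSMB5, 0.10 for PSMB9 to PSMB6 and −0.34 for PSMB10 to PSMB7, none of them tested. The probes of a pair differ in their share of G and C bases, 55% for PSMB8 and 43.3% for PSMB5. The shares are 36.7% for PSMB9 and 53.3% for PSMB6, and 55% for PSMB10 and 45% for PSMB7. The part of probe composition in the ratios was not tested. Centred on the mean of the 6 animals, the ratio of PSMB10 to PSMB7 was −0.15, −0.34 and −0.03 in the fat-1 animals and 0.15, 0.29 and 0.07 in the wild type animals, so the groups did not overlap. With the second PSMB7 probe, an alternative chosen after seeing the data, the difference of this ratio was −0.12, and its values were −0.10, 0.05 and −0.13 in the fat-1 animals and 0.02, 0.23 and −0.08 in the wild type animals, which overlap. The groups also overlapped for the other pairs.

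In each animal the inducible subunits were summarised by the median of their levels, each gene centred on its mean over the 6 animals. This was −0.20, −0.15 and −0.10 in the fat-1 animals and 0.06, 0.50 and −0.05 in the wild type animals. Every fat-1 animal lay below every wild type animal, by 0.05 at the nearest, and wild type replicate 2 stood well above the rest. With the median of the other members taken away, the values were −0.09, −0.06 and −0.16 in fat-1 blood and 0.01, 0.32 and −0.04 in wild type blood. The same median over all genes tested was −0.06, −0.01 and −0.02 in the fat-1 animals and 0.04, 0.19 and −0.06 in the wild type animals.

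**Figure D3:**
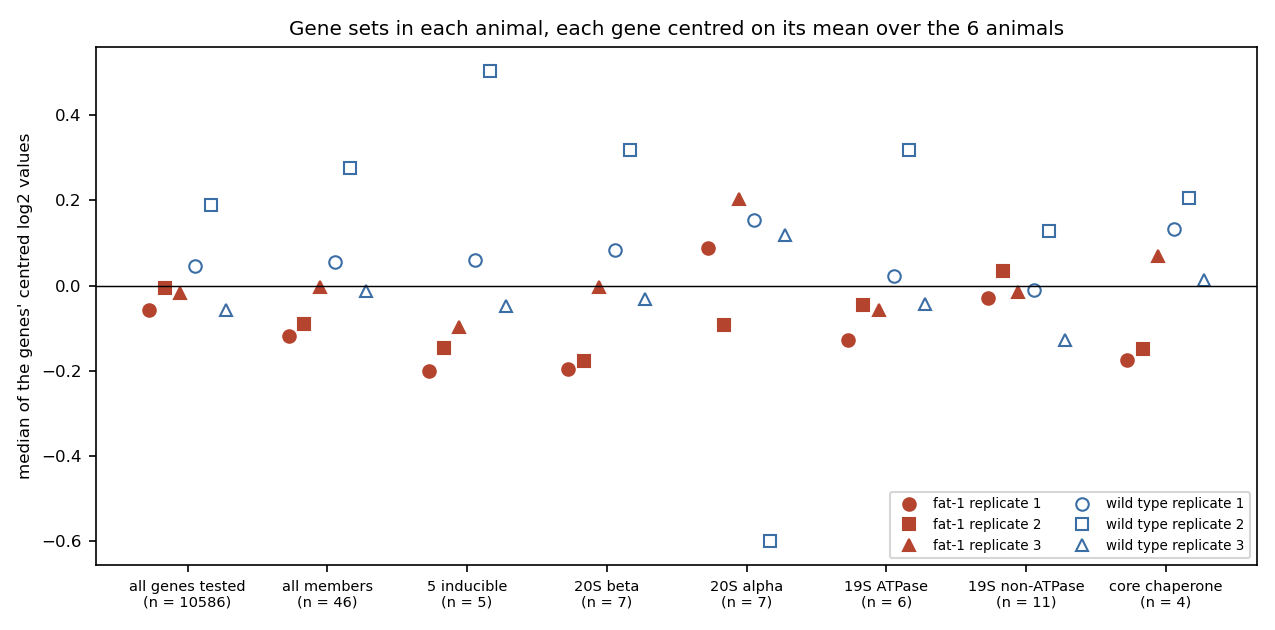
Median, in each animal, of the levels of all genes tested, of all members and of the gene groups named on the axis, with every gene centred on its mean over the 6 animals (log2). Filled symbols are fat-1 and open symbols wild type animals, and the shape is the replicate number. Wild type replicate 2 is the highest animal for each group drawn apart from the 20S alpha subunits, where it is the lowest at −0.60.

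The remaining 20S beta subunits complete the beta rings. All 7 constitutive beta subunits had differences below 0, with a median of −0.25, beside 58.1% of all genes below 0. For 3 of the 7 all fat-1 animals lay below all wild type animals, and the same held for 13.3% of all genes. Under quantile scaling PSMB1 and PSMB7 lay above 0 and 5 of 7 below. The lowest was PSMB3, a structural subunit, with levels of 3.09, 2.64 and 3.45 in fat-1 blood and 3.50, 3.49 and 3.63 in wild type blood. The fat-1 animals varied among themselves by more than the wild type animals did, and fat-1 replicate 3 lay just below the wild type range. Its difference was −0.48 ± 0.25 (limma adjusted p = 0.422), its second probe gave −0.38, and without fat-1 replicate 2 it was −0.27. PSMB1, another structural subunit, was nearest to 0 at −0.01 ± 0.22. The thymic catalytic subunit PSMB11, which is known from thymus epithelium, was near background in blood, with levels of −4.68, −4.52 and −3.65 in fat-1 animals and −4.51, −3.17 and −4.06 in wild type animals. It was well above background in 2 of 3 fat-1 animals and 3 of 3 wild type animals, and it is described after its values were seen, as a catalytic beta subunit outside the rule for named genes.

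The 20S alpha subunits, which form the gated outer rings, did not lean the same way. Of 7, 4 had differences above 0 and 3 below, with a median of 0.14. Their order rested on wild type replicate 2. In that animal their centred median was −0.60, against 0.15 and 0.12 in the other wild type animals and 0.09, −0.09 and 0.20 in the fat-1 animals. Without it the alpha median was −0.10 and 6 of 7 lay below 0.

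PSMA4 was the alpha subunit with the highest difference and the member with the smallest p. Its levels were 1.68, 1.99 and 2.20 in the fat-1 animals and 1.20, 0.78 and 1.58 in the wild type animals. All fat-1 animals lay above all wild type animals, and fat-1 replicate 1 and wild type replicate 3 were 0.10 apart. The difference was 0.77 ± 0.27, with a 95% interval of 0.16 to 1.38, an unadjusted p of 0.0198 and a limma adjusted p of 0.342. The second PSMA4 probe, whose sequence is shown above, gave 0.71 ± 0.28. At that probe the groups overlapped, with fat-1 replicate 1 at 0.162 and wild type replicate 3 at 0.167. PSMA4 remained the 1 alpha subunit above 0 without wild type replicate 2, at 0.57. At the other end PSMA7 differed by −0.34 ± 0.23 (limma adjusted p = 0.492), by −0.15 under quantile scaling and by −0.53 without fat-1 replicate 3, and PSMA6 was at −0.03 ± 0.20.

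The 19S ATPases, the ring that unfolds the substrate, had 2 of 6 differences above 0 and a median of −0.19. PSMC6 had the highest, with levels of 1.30, 1.43 and 1.59 in fat-1 blood and 0.95, 0.10 and 1.58 in wild type blood. The wild type animals spread over 1.48 and the fat-1 animals over 0.28 on the log2 scale, and wild type replicate 3 lay among the fat-1 animals. Its difference was 0.56 ± 0.35 (limma adjusted p = 0.476), and it was 0.18 with wild type replicate 2 left out and 0.91 with replicate 3 of that group left out. PSMC1 had the lowest difference, −0.34 ± 0.23, with no overlap between the groups, and −0.35 at its second probe. Without wild type replicate 2 it was −0.15, and under quantile scaling −0.21. Under quantile scaling 3 of 6 ATPases were above 0.

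The 11 non-ATPase subunits of the 19S cap, among them ubiquitin receptors and the scaffold, had a median of −0.08, the same as that of all genes, with 3 above 0. Under quantile scaling 9 of 11 were above 0, with a median of 0.07. PSMD14, the metalloprotease that cuts the ubiquitin chain off the substrate, had levels of 1.79, 1.58 and 1.88 in the fat-1 animals and 1.38, 0.61 and 1.77 in the wild type animals. Wild type replicate 3 lay within the fat-1 animals and replicate 2 far below. The difference was 0.50 ± 0.31 (limma adjusted p = 0.469), 0.44 at the second probe, 0.18 with wild type replicate 2 left out and 0.76 with replicate 3 of that group left out. PSMD8, a lid subunit, was lowest at −0.34 ± 0.26, against −0.12 without wild type replicate 2, −0.22 without fat-1 replicate 3 and −0.14 under quantile scaling, and the scaffold PSMD1 was at −0.00 ± 0.20.

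Of the remaining regulators, PSME4, an activator that caps the core without using ATP, had levels of −0.32, 0.06 and −0.23 in fat-1 blood and −0.76, −1.46 and −0.16 in wild type blood. Wild type replicate 3 lay among the fat-1 animals. The difference was 0.63 ± 0.33 (limma adjusted p = 0.423), with 0.65 and 0.58 at its other tested probes and 0.30 without wild type replicate 2. PSMF1, an inhibitor of the core in vitro, was at −0.26 ± 0.23, against −0.08 with wild type replicate 2 left out, −0.39 with replicate 3 of that group left out and −0.13 under quantile scaling.

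Of the chaperones that assemble the particle, 2 of 3 base and 3 of 4 core chaperones were below 0. This was the case for 73.9% of all members and 58.1% of all genes. PSMG4, which helps to build the alpha ring, had levels of 6.13, 6.09 and 6.02 in the fat-1 animals and 6.52, 6.77 and 6.39 in the wild type animals. The fat-1 animals lay within 0.11 of each other and 0.26 below the nearest wild type animal. The difference was −0.48 ± 0.21, with a 95% interval of −0.95 to −0.01, an unadjusted p of 0.0454 and a limma adjusted p of 0.386. The second probe gave −0.40 ± 0.19. Under quantile scaling the difference was −0.26, at an unadjusted p of 0.141, and with the replicate number as a block the unadjusted p was 0.0686 (limma). A further 2 probes named PSMG4 come from a predicted transcript and were not tested, and neither was well above background in any of the wild type animals. The core chaperone PSMG1 was at 0.02 ± 0.21. Among the base chaperones PSMD9 differed by −0.30 ± 0.21, without overlap, or by −0.19 without wild type replicate 2, and PSMD10 by 0.10 ± 0.23, or by 0.0077 without that animal.

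Several probes of 1 gene gave a check on the probe, not on the difference between groups. They read the same 6 animals, and some lie at almost the same position. Of 47 other tested probes in 31 members, 40 had the sign of the probe used and 7 the opposite sign. Of these 7, 1 had both values over 0.1 in size: a PSMB9 probe designed on an expressed sequence tag gave 0.71 ± 0.46, whereas the 3 probes on the reference transcript gave −0.24, −0.29 and −0.36. The tag probe was well above background in 2 of 3 wild type animals. A PSMC3 probe not used for the counts gave −0.61 ± 0.24 at an unadjusted p of 0.0334, against −0.34 for the probe used. It is singled out after its values were seen.

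The differences of the members went with the base composition of their probes. Over the 46 members the share of G and C in the probe and the difference had a Pearson correlation of −0.43 and a Spearman correlation of −0.43, and over all 10586 genes −0.25 and −0.30. These are correlations across genes of the same 6 arrays, so the points are not independent. Of the 17 members with under 40% G and C, 8 were above 0 with a median of −0.00. Of the 23 with 40% to under 50%, 4 were above 0 with a median of −0.15, and of the 6 with 50% or more none, with a median of −0.35. The medians of all genes in these classes were 0.04, −0.07 and −0.27. The difference also went with the mean log2 signal of the probe, at a Pearson correlation of −0.39 over members and −0.17 over all genes. Under quantile scaling these were −0.16 and 0.00. The median signal was 2267 for members above 0 and 14869 for members below 0.

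The centred levels of single arrays also correlated with probe GC. They are centred on the mean of the 6 animals, so a positive correlation in 1 array forces negative ones elsewhere. Over all genes the centred level of wild type replicate 2 correlated with probe GC at 0.38, whereas those of the fat-1 animals correlated at −0.09, −0.10 and −0.31 and those of wild type replicates 1 and 3 at 0.10 and −0.20. By this measure wild type replicate 3 lay among the fat-1 animals. PSMB8 and PSMB10 have probes with 55% G and C, whereas PSMB9, PSME2 and PSME1 have 36.7%, 41.7% and 45%. The correlation of the difference with probe GC over members was −0.38 under quantile scaling. The part of probe composition or signal level in the differences was not tested.

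**Figure D4:**
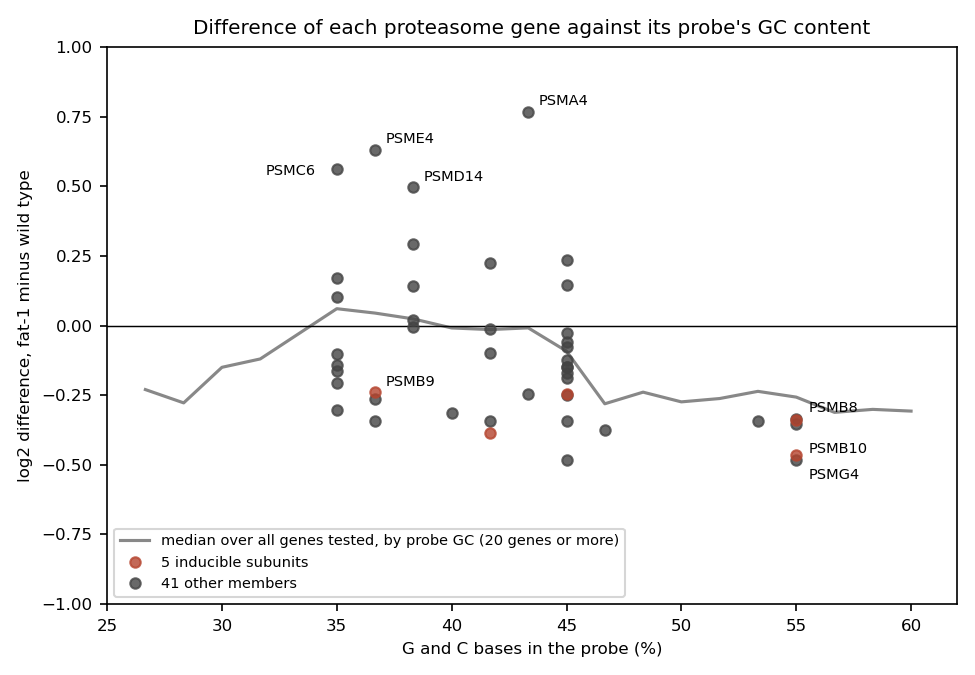
Log2 difference, fat-1 minus wild type, of each proteasome gene against the share of G and C bases in its probe, with the 5 inducible subunits in red. The line is the median difference of all genes tested at each GC value with 20 genes or more. Members above 0 have a median of 38.3% G and C and members below 0 of 45%, and PSMA4 lies far above the line.

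A list of 32 genes of interferon signalling, interferon response and peptide loading was looked at. It holds IFNG, its receptor and its kinases beside genes that interferon induces, so its median is not one of interferon targets alone. Of the list 30 were tested. Of these 10 were above 0 and 20 below, with a median of −0.14, and 0 passed an adjusted p of 0.05, while 4 of 30 had an unadjusted p under 0.05 by limma. Of all genes 58.1% lay below 0 and 11.9% had such a p. The list median was 0.05 under quantile scaling. Interferon-gamma itself, IFNG, had levels of −3.12, −3.26 and −1.90 in the fat-1 animals and −6.81, −5.27 and −4.83 in the wild type animals. It was well above background in all 3 fat-1 animals and in none of the wild type animals, where its level is only a limit. On the processed signal it was therefore higher in fat-1 blood by at least 4.25-fold. This limit sets the fat-1 mean against a wild type mean in which each array counts the probe's signal or the dimmest well-detected probe's signal, whichever was brighter. The fitted log2 difference was 2.87 (limma adjusted p = 0.106). IFNG passed the filter on dim probes only through the fat-1 arrays. Neither this p nor its place among the 4 of 30 is therefore support for a difference. With normexp background correction the fitted difference was 0.59, so the limit holds for the processed signal only. With the replicate number as a block the limma adjusted p was 0.0169.

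Others on the list did not share 1 direction. GBP5, a guanylate-binding protein induced by interferon, differed by 2.24 ± 0.45 (limma adjusted p = 0.121), with levels of −1.97, −1.95 and −1.60 in fat-1 blood and −3.42, −3.59 and −5.24 in wild type blood. It was well above background in 2 of 3 wild type animals, and its difference was 1.02 with normexp background correction. TAP2, which with TAP1 carries peptides into the endoplasmic reticulum, had levels of 3.22, 3.42 and 3.49 in the fat-1 animals and 4.16, 4.51 and 3.86 in the wild type animals. These groups did not overlap, and the difference was −0.80 ± 0.24 (limma adjusted p = 0.274). TAP1 was at −0.28 ± 0.24, or −0.18 with fat-1 replicate 2 and −0.11 with wild type replicate 2 left out. ERAP1, which trims peptides for MHC class I, was at 0.69 ± 0.28 (limma adjusted p = 0.374).

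Genes that work with the proteasome, a list of 30 of which 29 were tested, held 11 above 0 and 18 below, with a median of −0.10, 1 at an unadjusted p under 0.05 in each direction and 0 past an adjusted p of 0.05 in limma, beside 5.5% of all genes above 0 and 6.4% below 0 at that unadjusted p. The median was 0.01 under quantile scaling. NFE2L2, a transcription factor of the oxidative stress response that acts on proteasome genes, had levels of −0.07, 0.44 and 0.25 in the fat-1 animals and −0.22, −0.59 and −0.23 in the wild type animals. The groups did not overlap, and the difference was 0.56 ± 0.23 (limma adjusted p = 0.380). NFE2L1, the factor that raises subunit genes when the proteasome is inhibited, was at 0.01 ± 0.25. UBQLN4, a shuttle for ubiquitylated proteins, was at −0.56 ± 0.22 (limma adjusted p = 0.371), and POMP, the maturation factor of the core, at 0.19 ± 0.20, or 0.36 under quantile scaling.

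Markers of blood cell types were summed as signal relative to the 75th percentile, to set beside the inducible subunits. The 6 T cell markers summed to between 65.0 and 91.3 in fat-1 blood and between 91.9 and 145 in wild type blood, and all 6 differences were below 0, with none past the test. The 4 measured B cell markers summed to between 56.9 and 62.6 in fat-1 blood and between 65.0 and 106 in wild type blood, with 3 of 4 below 0. Neither pair of ranges overlapped, by narrow margins for both, and the median of the inducible subunits was also lower in every fat-1 animal. Taken singly, the groups did not overlap for 1 of 6 T cell markers, CD3E, and for 1 of 4 B cell markers, BLK. MS4A1 was above 0. Of all genes, 58.1% had a difference below 0, and 13.3% had all fat-1 animals lower without overlap. CD3E had the highest level of the 6 T cell markers in each animal, so it weighs most in their sum. CD79A had the highest level of the 4 B cell markers in each animal, and the groups overlapped for it.

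The sums of the other cell types overlapped between the groups. Differences were above 0 for 5 of 6 monocyte, 3 of 4 neutrophil, 4 of 4 platelet, 5 of 7 red cell and 2 of 5 NK cell markers. Of all genes tested 4435 of 10586 lay above 0. FCGR3A, listed as a neutrophil marker, was at 0.83, with all fat-1 animals higher (limma unadjusted p = 0.00444, adjusted p = 0.224). For the other tested neutrophil markers the groups overlapped, with S100A8 at 0.28, S100A12 at 0.17 and MMP9 at −0.03. Sums ranged between 158 and 213 in fat-1 and 156 and 200 in wild type animals for monocytes, between 407 and 589 and between 373 and 493 for neutrophils, and between 31.8 and 53.8 and between 34.1 and 48.6 for NK cells. Platelet markers summed to 126 to 204 in fat-1 and 132 to 174 in wild type animals, and red cell markers to 531 to 1035 in fat-1 and 98.7 to 1230 in wild type animals. On no array was the neutrophil marker CXCR2 well above background, and each of the other measured markers was on at least 1. The part of cell composition in the differences was not tested.

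**Figure D5:**
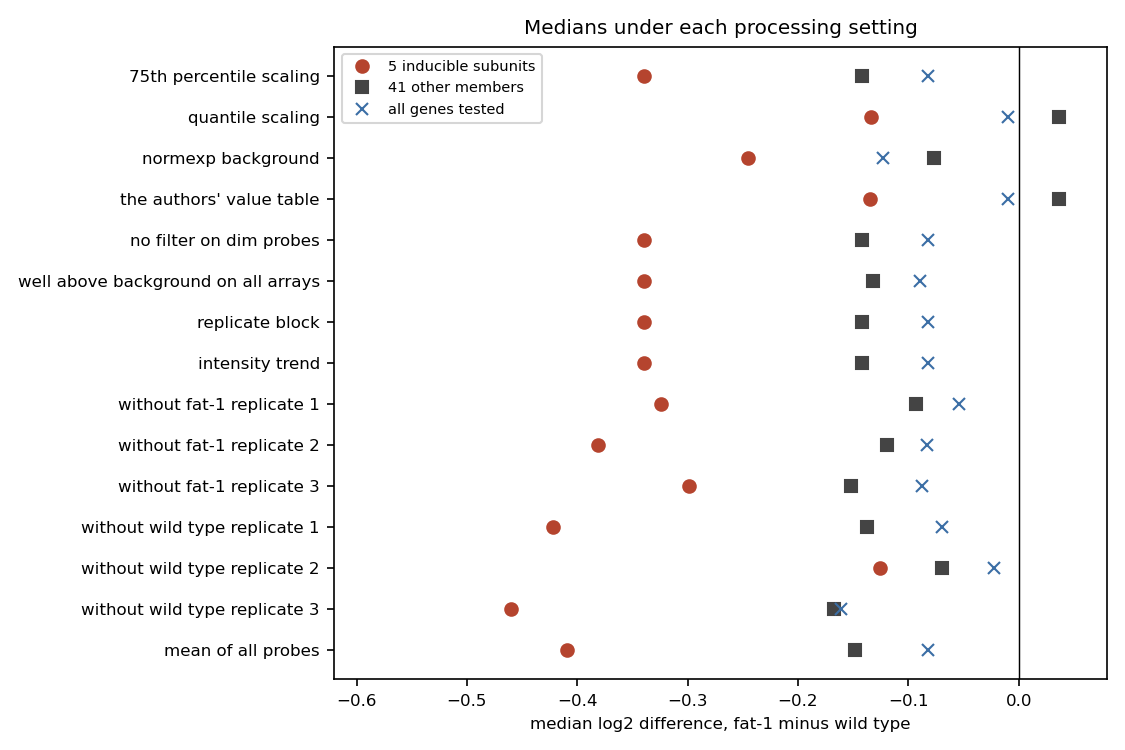
Median log2 difference, fat-1 minus wild type, of the 5 inducible subunits, the 41 other members and all genes tested, under each of 15 processing settings. The inducible median lies left of the other medians in each setting. It lies between −0.46 (wild type replicate 3 left out) and −0.13 (wild type replicate 2 left out). The filters on dim probes, the replicate block and the intensity trend leave the inducible median as it is. The other members' median lies right of 0 in the authors' value table and with quantile scaling.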

How the data were processed

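Arrays of 3 fat-1 and 3 wild type animals were analysed, 1 per animal, and the replicates are separate animals per the labels. Spot intensity in the scanner files is background-subtracted and unscaled between arrays, per the file headers, and the submitters' processing notes name Agilent Feature Extraction 10.7.1.1. Deposited flags, scored 0 or 1, marked outlying and saturated spots and those well above background. As an alternative, the log2 values deposited by the authors were used, which have 1 distribution on every array. For wild type replicate 2 the deposited file keeps 3 significant digits and has altered gene names, so names came from another array's file.

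The log2 of processed intensity had the 75th percentile of its array, over 43653 non-control probes, taken away. Spots were averaged per probe, 32 probes flagged as outliers were left out, and a probe was kept if at least 3 of the 6 arrays had it well above background. Differences were tested with limma 3.58.1 in R 4.3.3, on group alone, and p-values were adjusted by Benjamini-Hochberg across the 26823 probes kept. The number of arrays limits the precision. Probes were named from their accession through a RefSeq table for 20595, from a symbol for 10745 and from an older symbol for 376.

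Alternatives were quantile scaling, normexp background correction with an offset of 50, the authors' table, other filters on dim probes, an intensity trend in the variance, the replicate number as a block, averaging a gene's probes, and leaving out each array. The second PSMB7 probe in the ratio to PSMB10 was chosen after seeing the data. The slide could not be fitted, since it coincides with the group. The fit was tested on simulated data. The members and gene lists were chosen with earlier results of these data known. Named are the inducible subunits with their constitutive counterparts, the highest and lowest member of each role, members with an unadjusted p under 0.05 and members whose tested probes differ in sign. Genes named from the lists were chosen after their values were seen. Promoter motifs and protein sequences were not analysed here.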

Additional observations from a re-analysis of the deposited data

How the results depend on the processing

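No member passed an adjusted p of 0.05 under any of the 15 settings, and the smallest adjusted p was 0.118, for PSMA4 without wild type replicate 3. Members with an unadjusted p under 0.05 numbered 2, against 4 with an intensity trend, 3 with the mean of all probes, 1 each with no filter on dim probes, with quantile scaling, with the replicate block and with the authors' table, and between 0 and 5 when 1 array was left out (0 without wild type replicate 2, 5 without wild type replicate 3). Whether the replicate numbers pair the animals was not settled. Same-numbered deviations correlated at 0.12, 0.19 and 0.01, and those of different numbers at between −0.21 and 0.08. The block changed no call of a member and took the probes called on the whole array to 109, against 46. It turned IFNG, kept by the filter only through the fat-1 arrays, to a limma adjusted p of 0.0169.

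The median of all members was −0.00065 with quantile scaling and −0.0025 in the authors' table, and between −0.28 and −0.083 with 1 array left out. The inducible median lay between −0.46 and −0.13 with 1 array left out. The median of the other members was 0.037 with quantile scaling and 0.036 in the authors' table, that of the proteasome partner genes 0.0095 and 0.0083, and that of the interferon and peptide loading genes 0.055 and 0.054.

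Under quantile scaling 11 members changed sign, all to above 0, and their differences under 75th percentile scaling had been between −0.17 and −0.004. Of the members named, PSMA6 was at 0.17, PSMB1 at 0.18, PSMB7 at 0.10 and PSMD1 at 0.12 with it, and in the authors' table PSMA6 was at 0.17, PSMB1 at 0.18, PSMB7 at 0.10 and PSMD1 at 0.12. With normexp background correction PSMA6 was at 0.10, PSMB1 at 0.064, PSMD1 at 0.089 and PSMD10 at −0.0061. With the mean of all probes PSMD1 was at 0.087 and PSMG1 at −0.0012. With 1 array left out PSMA6 ranged between −0.10 and 0.030, PSMB1 between −0.11 and 0.10, PSMD1 between −0.069 and 0.054, PSMD10 between −0.014 and 0.25 and PSMG1 between −0.076 and 0.11. The cause was not tested. All 3 arrays of a group lie on 1 slide, 3 animals a group limit the power, and probes near background such as those of IFNG, GBP5 and PSMB11 depend on the background correction.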
